A study of Mus musculus with 12 samples.

Results

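The genes described here are 44 mitosis and spindle genes, listed by name as regulators of G2 and M phase, kinesins, and kinetochore and spindle checkpoint genes. All 44 of 44 were found among the 23479 genes of the deposited table. All 44 also had at least 10 normalized counts in at least 3 of 12 libraries, a filter that 13111 genes passed, so every member was tested. By role they were 9 kinases, cyclins and phosphatases of mitotic entry, 3 members of the chromosomal passenger complex, 5 spindle checkpoint genes, 7 centromere and kinetochore genes, 6 kinesins, 6 spindle assembly and cytokinesis genes, 4 genes of anaphase proteolysis, and 4 transcription factors and proliferation markers.

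The RNA came from a cultured B cell lymphoma, labelled as lymph node, of the C57BL/6 strain with an Eµ-Myc and an Eµ-rtTA transgene, and all groups derive from this 1 lymphoma. In Eµ transgenes the immunoglobulin heavy chain enhancer directs expression to B cells, so cells of every group carried Myc and rtTA transgenes and grew with IL-7 at 10 ng/mL. Vector cells had received an empty retrovirus with puromycin resistance. TFEB cells had received the virus with TFEB, which switches on genes of lysosomes and autophagy, with a serine exchanged for alanine and joined to ERT2, a changed hormone-binding part of the human estrogen receptor. Cells of each line were treated with vehicle or with 4-hydroxytamoxifen (4-OHT), the ligand of ERT2, for 4 days, which gave 4 groups of 3 libraries. The TFEB cells in vehicle thus carried the fusion protein's gene as well. The dose is uncertain, being 250 nM in the treatment protocol but the same number of ng/mL in the design text. Whether the 3 libraries of a group came from separate cultures or transductions is not given, so p-values reflect the spread of these libraries alone, which may be technical.

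Libraries held 11849029 to 22109283 reads, and 1 read was worth 0.738 to 1.38 normalized counts. The number of genes with at least 1 read ranged from 11390 to 19250 and was highest in vector 4-OHT library 2 and TFEB 4-OHT library 2. Tfeb stood at 195 to 255 normalized counts in the 6 vector libraries, at 1476 to 1955 in TFEB cells in vehicle and at 581 to 711 in TFEB cells in 4-OHT, so every TFEB library was above every vector library. The summed level of 8 B lineage markers was 30040 to 31920 in TFEB 4-OHT libraries and 39210 to 42820 in the other groups. The summed level of 6 B cell precursor markers was 8661 to 9163 in TFEB 4-OHT libraries and 20400 to 24690 elsewhere. Sums stayed at or below 73.3 for the T cell, NK cell, granulocyte and erythroid marker lists, 4 of 6 erythroid markers were at 0 in every library, and the macrophage list summed to 158 to 413. The stroma and endothelium list summed to 689.8 to 974, of which Pecam1 made up 648 to 908, and Col1a1, Col1a2, Col3a1 and Pdgfrb were each highest in vector 4-OHT library 2 or TFEB 4-OHT library 2. In bulk RNA of this kind, fewer cells of a type and less RNA per cell cannot be told apart.

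Mitosis begins when cyclin B activates the kinase CDK1. Kinesins and microtubule-binding proteins then build the spindle, and the spindle checkpoint delays anaphase until kinetochores are attached, after which the anaphase-promoting complex marks cyclin B and securin for destruction. Transcription of many of these genes is known to rise in G2 and M phase through a short promoter element called the cell cycle genes homology region (CHR), to which the MuvB complex binds together with MYBL2 and FOXM1, often beside CCAAT boxes bound by NF-Y. Lymphomas of Eµ-Myc mice are known as rapidly dividing B cell tumours, in which such transcripts are abundant.

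Many of the members' promoters held the CHR and CCAAT letters, and 8 that held both are shown here to let these letters be seen in place. Promoters were taken from RefSeq (build GRCm38.p6), as windows from 250 bases before to 50 bases after the transcription start, and 37 of 44 members had a window. The 8 shown have a CHR wholly within the 50 bases before the start, and the 80 bases before the start are printed on the gene's strand, 5′ to 3′. Capitals mark the CHR (TTTGAA, or TTCAAA when read on the opposite strand) and the CCAAT box (CCAAT, or ATTGG on the opposite strand).
Cdk1 (chr10:69352913-69352992, minus strand): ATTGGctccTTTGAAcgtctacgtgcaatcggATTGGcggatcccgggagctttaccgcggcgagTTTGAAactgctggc
Bub3 (chr7:131560290-131560369, plus strand): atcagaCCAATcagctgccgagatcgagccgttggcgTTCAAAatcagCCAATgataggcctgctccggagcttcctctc
Kif11 (chr19:37376302-37376381, plus strand): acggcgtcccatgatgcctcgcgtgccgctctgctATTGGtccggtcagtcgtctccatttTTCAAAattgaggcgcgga
Prc1 (chr7:80294396-80294475, plus strand): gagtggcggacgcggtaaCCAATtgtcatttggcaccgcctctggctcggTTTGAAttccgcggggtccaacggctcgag
Cdc20 (chr4:118437344-118437423, minus strand): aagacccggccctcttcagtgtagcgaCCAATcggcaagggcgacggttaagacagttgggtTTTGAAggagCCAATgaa
Ube2c (chr2:164769849-164769928, plus strand): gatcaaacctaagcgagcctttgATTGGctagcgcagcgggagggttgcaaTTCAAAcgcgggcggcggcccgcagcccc
Espl1 (chr15:102296213-102296292, plus strand): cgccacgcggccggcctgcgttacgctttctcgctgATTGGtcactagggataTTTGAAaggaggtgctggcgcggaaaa
Top2a (chr11:99024190-99024269, minus strand): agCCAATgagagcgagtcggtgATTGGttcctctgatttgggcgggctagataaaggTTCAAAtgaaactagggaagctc

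In these 8 promoters the CHR nearest the start began between positions -43 (Bub3) and -15 (Cdk1) from the start, with at least 1 CCAAT box in the same 80 bases. The stretch of Cdk1 holds another CHR farther upstream. Espl1, the gene of separase, is the only member among the 8 whose change with 4-OHT in TFEB cells did not pass the test described below. Motifs were searched on both strands of the 300-base window. A CHR, searched as TTTGAA or TTCGAA, was found in 27 of 37 members (73.0%), against 16.4% of the 9587 tested genes with a window and 21.7% of all genes with a window. In 25 of the 27 a CHR began within 50 bases of the start. CCAAT was also found in 27 of 37 members (73.0%), against 43.5% of tested genes and 41.1% of all genes, and 24 members held both motifs. Birc5, Nuf2, Nusap1, Mad2l1, Pttg1, Mybl2 and Plk4 held neither in their windows. For Mad2l1, Pttg1, Mybl2 and Plk4 the window did not include the gene start of GENCODE vM21, so bases around that start were not all searched. The E2F core TTCCCGC, typical of S phase genes, was found in 1 member, the centriole kinase Plk4 (2.7%), against 9.9% of tested genes, 5.3% of all genes and 40.8% of 49 DNA replication genes with a window. CACGTG, the E-box that MYC and TFEB are known to bind, was found in 3 members (8.1%), Ttk, Anln and Espl1, against 11.5% of tested genes and 8.1% of all genes. Its extended form TCACGTGA, which contains CACGTG and resembles the lysosomal gene element of TFEB, was found in Anln alone (2.7%), against 2.2% of tested genes. Split by the result in TFEB cells, a CHR was present in 24 of 29 members that fell with 4-OHT (82.8%) and in 3 of 8 that did not pass (37.5%), given as a description without a test. Those that did not pass include Mad2l1, Pttg1 and Mybl2, whose windows missed the GENCODE gene start.

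**Figure D1:**
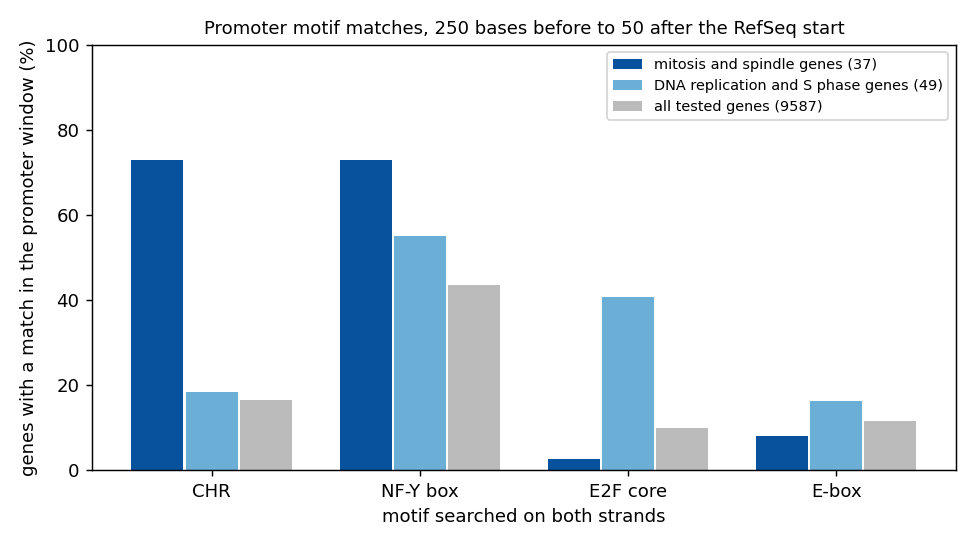
Bars give the percent of genes with at least 1 motif match in the promoter window, for the 37 members, 49 DNA replication and S phase genes, and 9587 tested genes. CHR matches stand at 73.0% in the members and 18.4% in the DNA replication genes, whereas E2F core matches stand at 2.7% and 40.8%.

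In TFEB cells, 34 of the 44 genes fell with 4-OHT, none rose, and 10 did not pass the test. Over all tested genes 13.9% were called lower and 13.7% higher, and among genes with a mean of at least 100 normalized counts 19.5% were called lower. The median change of the members was -0.48 on the log2(value + 1) scale, against 0.04 over all tested genes. Changes ranged from -1.43 for Ndc80, the microtubule-binding subunit of the outer kinetochore, to 0.52 for Pttg1, the gene of securin, which did not pass. In 36 of 44 members every TFEB 4-OHT library lay below every TFEB vehicle library, as was so for 18.4% of all tested genes. In 32 of 44 the TFEB 4-OHT libraries lay below all 9 other libraries, against 10.8% of tested genes. The members together took 0.492% ± 0.0221 of reads in TFEB 4-OHT libraries (SD, n = 3), 0.710% ± 0.00584 in TFEB vehicle, 0.785% ± 0.0424 in vector 4-OHT and 0.697% ± 0.0724 in vector vehicle. Calls are from limma with Benjamini-Hochberg adjustment over all tested genes at 0.05. With edgeR's quasi-likelihood test on the recovered whole reads, 36 members were called lower, against 1922 of 13111 tested genes. Without the libraries with the most genes detected in each 4-OHT group (library 2) and the shallowest library (TFEB vehicle library 3), 30 members were called. The share over all tested genes is not given for this setting. The summed B lineage and precursor markers given above were lower in the same 3 libraries (in TFEB cells 5 of 8 B lineage markers fell and 3 rose, Cd79a, Blnk and Ptprc, and 4 of 5 tested precursor markers fell), and their part in the result was not tested.

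**Figure D2:**
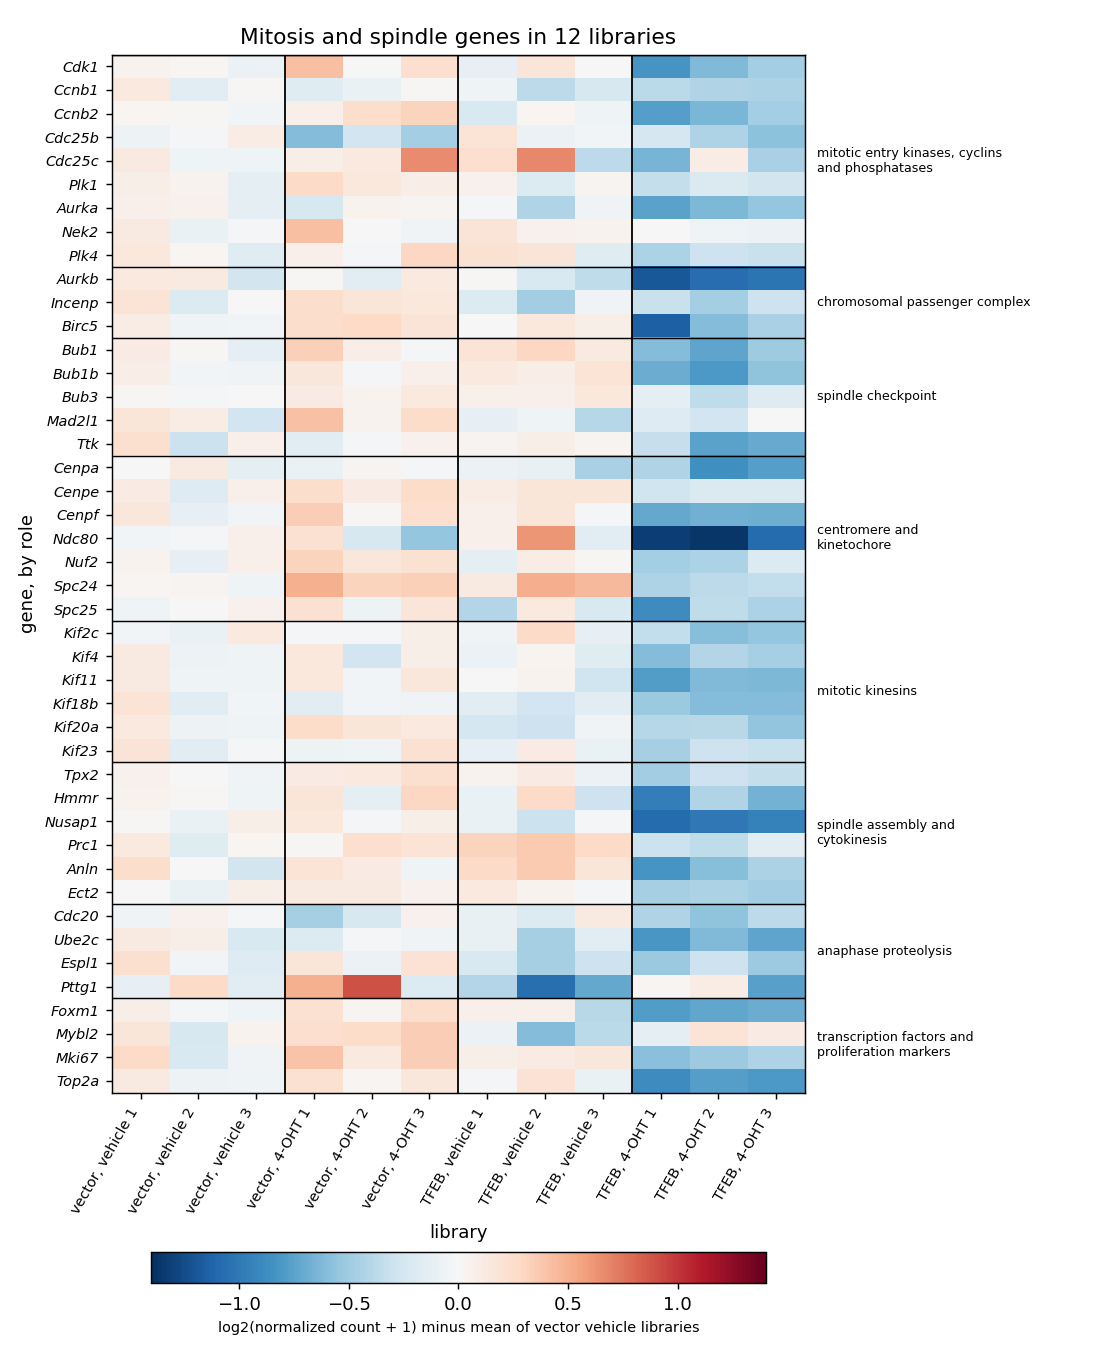
Each row is a member, grouped by role, and each column a library. Colour is log2(normalized count + 1) minus the gene's mean over the 3 vector vehicle libraries. The 3 TFEB 4-OHT columns are blue in nearly all rows, with library medians of -0.50, -0.46 and -0.48, while the medians of the 9 other libraries lie between -0.06 and 0.16.

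Among the genes of mitotic entry, 5 of 9 fell in TFEB cells and 4 did not pass. Gene positions are from GENCODE vM21 on GRCm38. Cdk1 (chr10:69335146-69352938, minus strand), the kinase that drives entry into mitosis, stood at 1874, 2285 and 2033 normalized counts in TFEB vehicle, at 1148, 1318 and 1454 in TFEB 4-OHT, at 2098, 2071 and 1925 in vector vehicle and at 2721, 2029.9 and 2395 in vector 4-OHT. The TFEB 4-OHT libraries were the lowest 3 of the 12, without overlap with any other group. The change was -0.66 ± 0.11 log2 (SE), 1.58-fold lower, with a limma adjusted p of 1.19e-05. Of its cyclin partners, Ccnb2 fell by 0.55 log2, from 1202 ± 104 to 823 ± 83.6 normalized counts (SD, n = 3), while Ccnb1 did not pass. Ccnb1 read 1098, 891 and 986 in TFEB vehicle and 881, 858 and 843 in TFEB 4-OHT. Its 4-OHT libraries lay below all others but close to vehicle library 2, with a change of -0.20 log2 (95% interval -0.43 to 0.03) and a limma adjusted p of 0.208. Aurka, a kinase of spindle poles, fell by 0.47 log2, and Plk4, which starts centriole duplication, fell by 0.43.

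The phosphatases and the remaining kinases of entry varied more. Cdc25b, a phosphatase that activates CDK1, stood at 2939, 2431 and 2514 normalized counts in TFEB vehicle and at 2195, 1912 and 1735 in TFEB 4-OHT. In vector cells it stood at 2449, 2528 and 2777 in vehicle and at 1695, 2145 and 1859 in 4-OHT, so in each line the 4-OHT libraries lay below the vehicle libraries. The change was -0.43 log2 in TFEB cells, with a limma adjusted p of 0.00141, and -0.45 in vector cells, where the adjusted p of 0.142 did not pass. Its relative Cdc25c spread widely, from 275 to 566 in TFEB vehicle and from 226 to 381 in TFEB 4-OHT, and its change of -0.51 log2 had a limma adjusted p of 0.0849. Without TFEB vehicle library 3 its change was -0.79 with a limma adjusted p of 0.00749, and without TFEB 4-OHT library 2 it was -0.73 with 0.0199. On the recovered reads edgeR and DESeq2 called it lower, with adjusted p of 0.0443 and 0.045. Plk1, a kinase of many mitotic steps, changed by -0.23 log2 with a limma adjusted p of 0.088, although its 4-OHT libraries (1163, 1279 and 1230.1) lay just below its vehicle libraries (1532, 1286 and 1505). Nek2, a centrosome kinase, moved least in the group. It read 913, 839 and 829 in TFEB vehicle and 801, 773 and 757 in TFEB 4-OHT, within the range of the vector libraries (752 to 1078), and its change was -0.15 log2 with an interval of -0.40 to 0.11.

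Of the chromosomal passenger complex, which corrects faulty attachments and guides cytokinesis, 2 of 3 members fell. Aurkb, its kinase (chr11:69045647-69051664, plus strand), stood at 842, 719 and 648 normalized counts in TFEB vehicle and at 364, 396 and 409 in TFEB 4-OHT, while the 6 vector libraries ranged from 693 to 914. The TFEB 4-OHT libraries were far below all 9 others. Its change of -0.91 ± 0.14 log2 (SE) was 1.88-fold lower, with a limma adjusted p of 4.11e-06. Birc5, the gene of survivin, fell by 0.81 log2, from 857 ± 45.1 to 498 ± 116 (SD, n = 3), with TFEB 4-OHT library 1 lowest at 368. Incenp, the scaffold of the complex, read 2860.2, 2331 and 3148 in TFEB vehicle and 2627, 2342 and 2669.8 in TFEB 4-OHT. These groups overlapped fully, and the change was -0.12 log2 with an interval of -0.33 to 0.09.

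In the spindle checkpoint 4 of 5 genes fell. Bub1b (chr2:118598211-118641591, plus strand), the gene of BUBR1, which inhibits the anaphase-promoting complex, stood at 4963, 4816 and 5179.7 normalized counts in TFEB vehicle, at 2789, 2601 and 3071 in TFEB 4-OHT, at 4812, 4403 and 4379.8 in vector vehicle and at 5041, 4492 and 4752 in vector 4-OHT. The 9 other libraries stayed above 4379 and no group overlapped with TFEB 4-OHT. Its change of -0.82 ± 0.08 log2 (SE), 1.77-fold lower, had a limma adjusted p of 1.87e-09. Bub1, a kinase at kinetochores, fell by 0.82 log2, from 1996 ± 109 to 1135 ± 96.7 (SD, n = 3). Ttk, the kinase that starts checkpoint signalling, fell by 0.65, and Bub3, the partner that carries BUB1 and BUBR1 to kinetochores, fell by 0.32. Mad2l1, which binds and holds CDC20, did not follow: it read 739, 772 and 605 in TFEB vehicle and 705, 665 and 798 in TFEB 4-OHT. The groups overlapped, and the change was 0.04 log2 with an interval of -0.24 to 0.32.

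Of the centromere and kinetochore genes 6 of 7 fell, with the largest fall of all members in Ndc80. Ndc80 (chr17:71496100-71526857, minus strand) stood at 1322, 1933 and 1136 normalized counts in TFEB vehicle, at 504, 489 and 596 in TFEB 4-OHT, at 1226, 1234 and 1320.3 in vector vehicle and at 1458, 1078 and 863 in vector 4-OHT. TFEB vehicle library 2 was the highest of the 12, vector 4-OHT library 3 the lowest outside TFEB 4-OHT, and the TFEB 4-OHT libraries lay below all others. The change was -1.43 ± 0.16 log2 (SE), 2.70-fold lower, with a limma adjusted p of 1.12e-08. Without TFEB vehicle library 2 it was -1.21. The other subunits of the NDC80 complex changed less. Spc24 fell by 0.74 log2 and Nuf2 by 0.37, while Spc25 changed by -0.40 with a limma adjusted p of 0.0604.

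Nuf2, the partner of NDC80 and the smallest change of this group, stood at 913, 1067 and 1002 in TFEB vehicle and at 712, 729 and 873 in TFEB 4-OHT. Its TFEB 4-OHT libraries lay below the 9 others, with library 3 nearest to them, and the limma adjusted p was 0.0133. Cenpf, a large kinetochore protein, fell by 0.76 log2, from 4028 ± 254 to 2372 ± 40.6 (SD, n = 3). Cenpe, a kinesin of kinetochores, fell by 0.37, from 6277 ± 179 to 4854 ± 150.3. Cenpa, the histone variant that marks centromeres, fell by 0.47, although its libraries overlapped, with 1112 in TFEB 4-OHT library 1 and 1091 in TFEB vehicle library 3.

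All 6 mitotic kinesins fell in TFEB cells. Kif11 (chr19:37376403-37421859, plus strand), the motor that pushes spindle poles apart, stood at 3062, 3182 and 2542 normalized counts in TFEB vehicle, at 1795, 2002 and 1998 in TFEB 4-OHT, and at 2952 to 3438 in the 6 vector libraries. The TFEB 4-OHT libraries lay below all others, and TFEB vehicle library 3 was the next lowest. Its change of -0.60 ± 0.09 log2 (SE), 1.51-fold lower, had a limma adjusted p of 8.19e-06. Kif2c, which depolymerizes microtubules at centromeres, fell by 0.53 log2, Kif4, a chromosome-bound motor, by 0.42, Kif18b, which controls astral microtubule length, by 0.39, and Kif23, a subunit of centralspindlin, by 0.33. Kif20a, a kinesin of cytokinesis, fell least. It read 2155, 2099 and 2476 in TFEB vehicle and 1946, 1956 and 1742 in TFEB 4-OHT, and these groups did not overlap. Its change of -0.25 ± 0.09 log2 (SE) had a limma adjusted p of 0.0375. Over 25 alternative settings the call was lost in 9 for Kif20a, in 4 for Kif23 and in 1 each for Kif2c and Kif18b. Kif20a shares 1271 exonic bases with Cdc23 on the opposite strand, and the sources used here do not give whether reads were counted by strand.

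All 6 spindle assembly and cytokinesis genes fell too. Anln (chr9:22332012-22389188, minus strand), the gene of the contractile ring protein anillin, stood at 1751, 1875 and 1633 normalized counts in TFEB vehicle, at 823, 962 and 1070.0 in TFEB 4-OHT, at 1723, 1467 and 1222 in vector vehicle and at 1658, 1580.3 and 1400.1 in vector 4-OHT. The TFEB 4-OHT libraries were the lowest 3, and vector vehicle library 3 came next. The change of -0.89 ± 0.12 log2 (SE), 1.85-fold lower, had a limma adjusted p of 3.94e-07. Nusap1, which bundles spindle microtubules, fell by 0.87 log2, from 2439 ± 237 to 1332 ± 60.6 (SD, n = 3). Hmmr, a spindle pole protein, fell by 0.64, Prc1, which crosslinks the central spindle, by 0.58, and Ect2, which activates RhoA at the division site, by 0.52. Tpx2, the activator of Aurora A on spindles, had the smallest fall. It read 3598, 3767 and 3302 in TFEB vehicle and 2496, 2862 and 2769 in TFEB 4-OHT, below all 9 other libraries, with a change of -0.39 ± 0.08 log2 (SE) and a limma adjusted p of 0.000435.

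Anaphase proteolysis was the least uniform role, with 2 of 4 genes lower. Ube2c, the ubiquitin-conjugating enzyme of the anaphase-promoting complex, stood at 2085, 1626 and 2004 normalized counts in TFEB vehicle and at 1267, 1453 and 1339 in TFEB 4-OHT, with 1933 to 2447 in the vector libraries. No TFEB 4-OHT library reached any other group, and the change was -0.49 ± 0.10 log2 (SE) with a limma adjusted p of 0.000529. Cdc20, its coactivator in mitosis, fell by 0.39 log2, from 1040.4 ± 119.8 to 791 ± 54.3 (SD, n = 3), but vector 4-OHT library 1 stood as low, at 779. Espl1, the gene of separase, which cuts cohesin, read 1181, 986 and 1118 in TFEB vehicle and 950.2, 1117 and 961 in TFEB 4-OHT. These overlapped, and the change was -0.12 log2 with an interval of -0.35 to 0.12. Pttg1, the gene of securin, which restrains separase, was the least abundant member, at 103, 65.1 and 82.9 in TFEB vehicle and 139.9, 147 and 80.5 in TFEB 4-OHT. Its groups overlapped as well, and the change of 0.52 log2 had an interval of -0.16 to 1.20 and a limma adjusted p of 0.28.

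Of the transcription factors and proliferation markers 3 of 4 fell. Top2a (chr11:98992943-99024189, minus strand), the topoisomerase that untangles sister chromatids, stood at 14091, 16527 and 13423 normalized counts in TFEB vehicle, at 7799, 8363 and 8208 in TFEB 4-OHT, at 15646, 13647 and 13761 in vector vehicle and at 16633, 14581 and 15978 in vector 4-OHT. The TFEB 4-OHT libraries lay close together and far below the rest. Its change of -0.85 ± 0.09 log2 (SE), 1.80-fold lower, had a limma adjusted p of 2.96e-09. Mki67, the gene of the proliferation antigen Ki-67, fell by 0.62 log2, from 33462 ± 829 to 21723 ± 1159 (SD, n = 3). Foxm1, an activator of G2 and M phase genes, fell by 0.65, from 1639 ± 283 to 1031 ± 32.5. Mybl2, which works with the MuvB complex on the same genes, went the other way in the values: it read 436, 304 and 355 in TFEB vehicle and 425, 527 and 501 in TFEB 4-OHT. TFEB 4-OHT library 1 overlapped with vehicle library 1, and the change of 0.42 log2 (interval 0.09 to 0.74) had a limma adjusted p of 0.0517, just above the threshold. In vector cells Mybl2 read 521, 397 and 477 in vehicle and 542, 550 and 588 in 4-OHT, without overlap. That change was 0.28 log2 with a limma adjusted p of 0.861. The difference between the changes of the lines was 0.14 log2, with a limma adjusted p of 0.799.

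**Figure D3:**
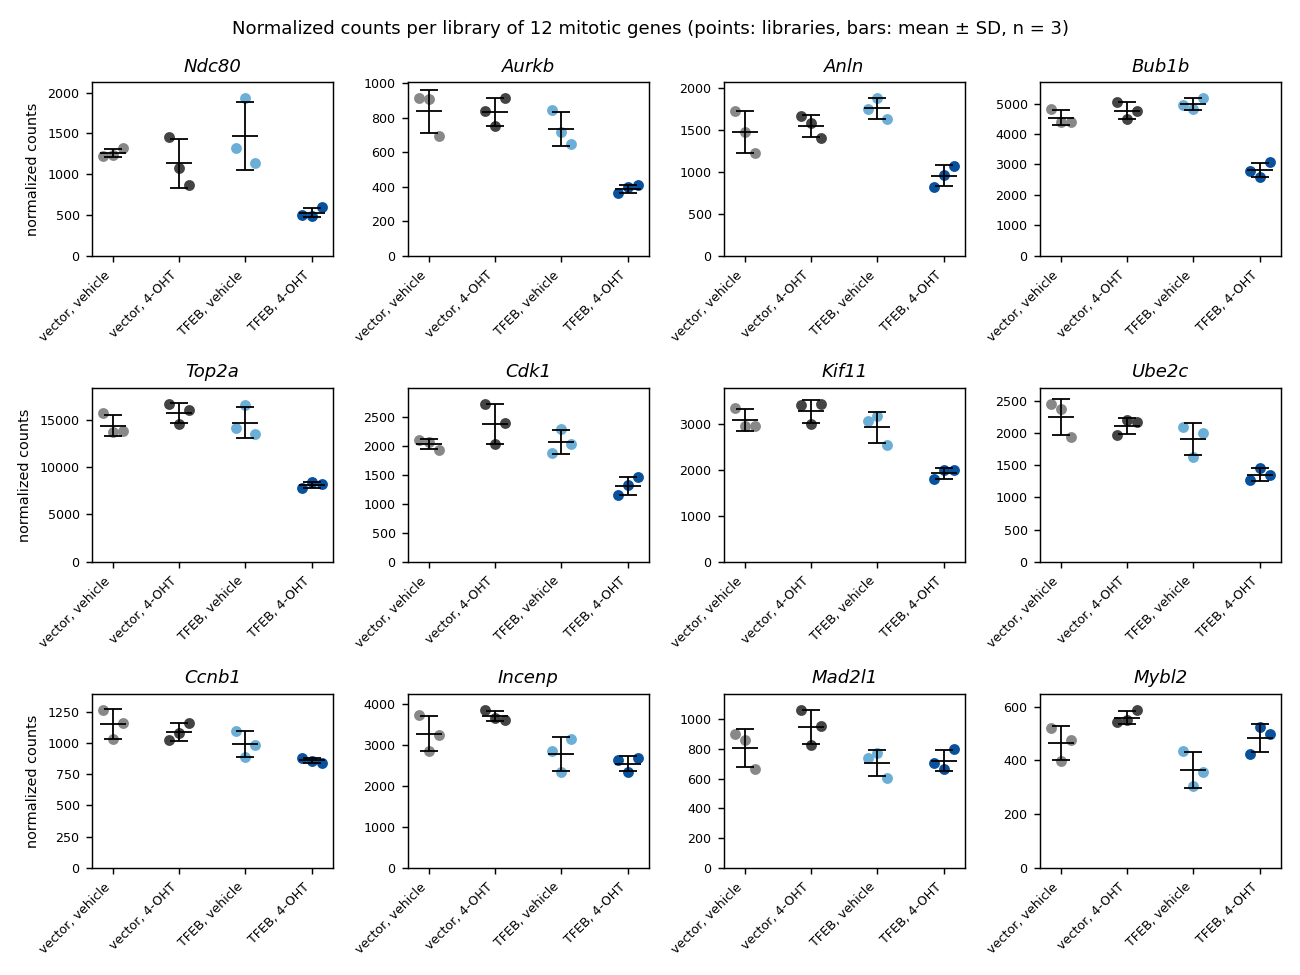
Points are normalized counts per library (vertical axis, from 0) of 12 members in the 4 groups, and bars are the mean ± SD of 3 libraries. For Ndc80, Aurkb, Anln, Bub1b, Top2a, Cdk1, Kif11 and Ube2c the TFEB 4-OHT points lie below all others, while those of Incenp, Mad2l1 and Mybl2 overlap with TFEB vehicle.

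Levels differed widely between members. Per kilobase of annotated exon (GENCODE vM21, all isoforms merged), the TFEB vehicle mean was 3326 normalized counts for Mki67, 1629 for Top2a and 1166 for Bub1b, and 41.8 for Pttg1, the lowest. After 4-OHT in TFEB cells these levels per kilobase were 2159 for Mki67, 901 for Top2a and 659.8 for Bub1b, so the order of these 3 was the same. Across the 44 members the log2 change in TFEB cells and the log2 mean level in TFEB vehicle had a Pearson r of -0.435. This is a description across genes, which are not independent replicates, and both quantities use the same TFEB vehicle libraries. Besides Kif20a, 9 members share exonic bases with a gene on the opposite strand, from 53 bases for Cdc20 with Elovl1 to 911 for Prc1 with Rccd1, and without the strand setting reads there cannot be assigned to either gene. On their own strand, Foxm1 shares 241 bases with Tex52 and Gm44596 together, and Top2a shares 122 with Gm23451.

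In vector cells, where 4-OHT was given without the fusion, none of the 44 members passed, where 0.0153% of all tested genes were called. At an unadjusted p under 0.05 limma gave 7 of 44 members, against 822 of 13111 tested genes. After adjustment edgeR gave 0, as it did over all tested genes. DESeq2 gave 1, Cdc25b, and its share over all tested genes is not given here. The median change was 0.11 log2, against 0.03 over all tested genes, and 34 of 44 estimates were above 0. Estimates ran from -0.45 for Cdc25b to 0.40 for Pttg1, and the 95% intervals of all members together reached from -0.66 to 1.08. In 10 members every vector 4-OHT library lay above every vehicle library, as for 5.43% of tested genes. These included Ccnb2, Birc5, Bub3, Spc24 and Tpx2. Spc24, for example, stood at 409, 414 and 385 normalized counts in vector vehicle and at 568, 498 and 509 in vector 4-OHT, a change of 0.38 log2 with a limma adjusted p of 0.666. In 1 member, Cdc25b, the 4-OHT libraries lay below, as for 5.34% of tested genes, and without vector 4-OHT library 2 this gene passed in limma with an adjusted p of 0.0229.

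The difference between the 4-OHT effects of the lines was tested as an interaction, which asks whether the lines responded differently. It passed as lower in TFEB cells for 25 of 44 members and as higher for none, where 8.01% of tested genes were called lower and 7.75% higher. The median difference was -0.57 log2, against -0.03 over all tested genes. Ndc80 differed by -1.25 ± 0.22 log2 (SE) with a limma adjusted p of 9.36e-05, Spc24 by -1.12 ± 0.22, Birc5 by -1.04 ± 0.19 and Top2a by -0.98 ± 0.12. All 6 spindle assembly and cytokinesis genes passed, as did 4 of 5 checkpoint genes, 5 of 7 centromere and kinetochore genes, 3 of 9 entry genes and 2 of 6 kinesins, Kif11 and Kif20a. Of the 5 checkpoint genes edgeR called 2, with an edgeR adjusted p of 0.0573 for Bub3 and 0.0611 for Ttk. Over 25 alternative settings the call was lost in 12 for Bub3 and in 14 for Ttk. No gene of anaphase proteolysis passed. Cdc25b, which fell in TFEB cells, had a difference of 0.01 log2 with an interval of -0.28 to 0.31. Aurka, Cenpa, Kif2c, Kif4, Kif18b, Kif23, Cdc20 and Ube2c also fell in TFEB cells without passing this test, with limma adjusted p from 0.0662 for Ube2c to 0.603 for Cdc20.

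**Figure D4:**
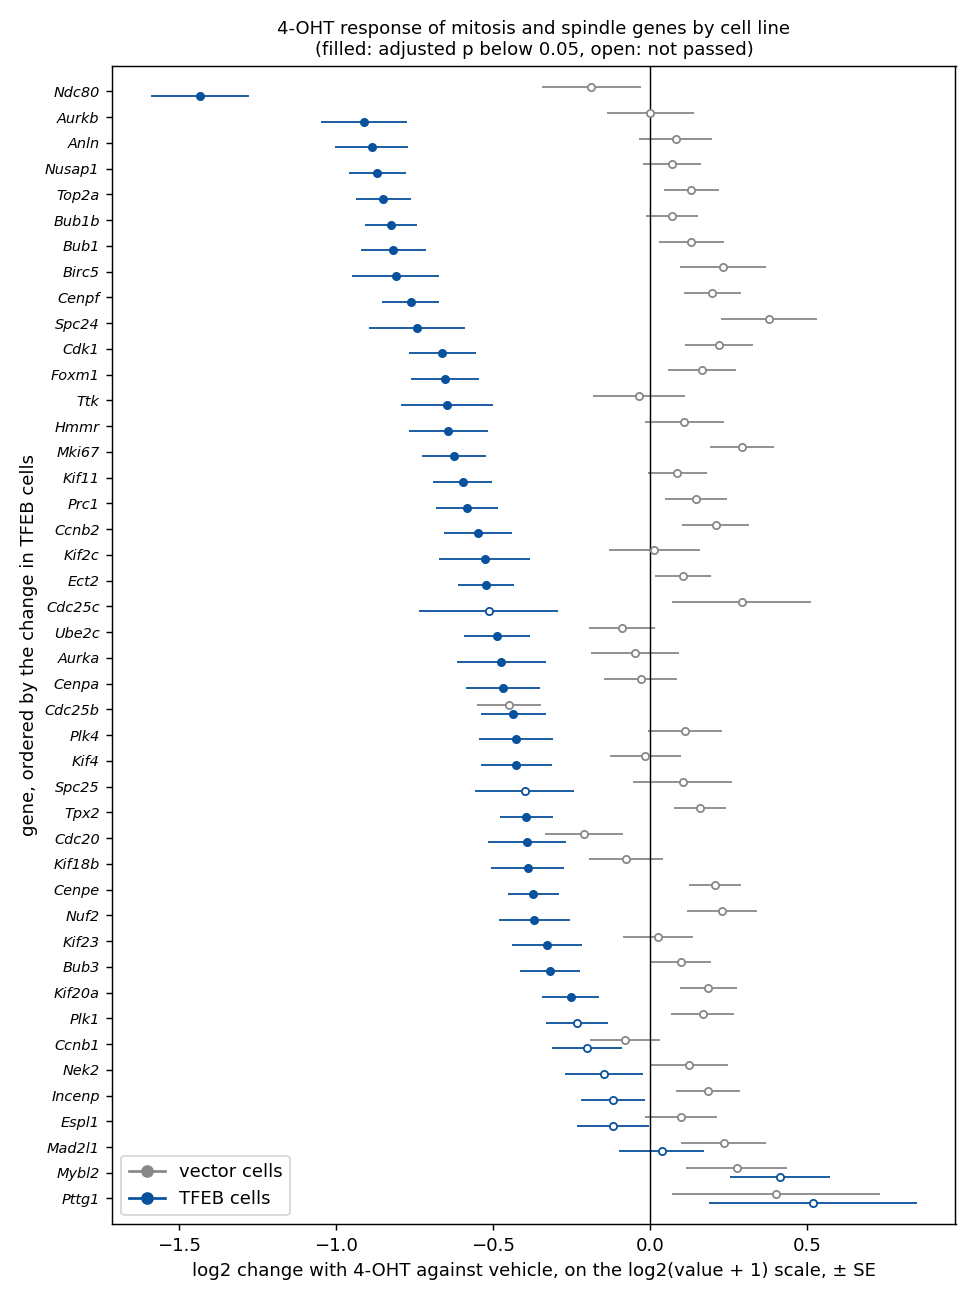
Points are log2 changes with 4-OHT on the log2(value + 1) scale (horizontal axis), with bars of ± 1 SE, for each member in vector cells (grey) and TFEB cells (blue), filled where the adjusted p is below 0.05. The blue points run from -1.43 (Ndc80) to 0.52 (Pttg1) and 34 are filled, and the grey points lie between -0.45 (Cdc25b) and 0.40 (Pttg1) with none filled.

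The lines were also compared without 4-OHT. In vehicle, TFEB against vector cells passed for none of the 44 members, where 5.38% of tested genes were called, 2.49% as lower and 2.89% as higher. At an unadjusted p under 0.05 limma gave 9 of 44 members, against 2319 of 13111 tested genes. After adjustment edgeR gave none, where it called 316 of 13111 tested genes higher and 330 lower. DESeq2 gave 2, Prc1 as higher and Espl1 as lower, and its share over all tested genes is not given here. The median difference was -0.02 log2. Prc1 came closest in limma, at 1670.3, 1352 and 1552 normalized counts in vector vehicle and 1889, 1955 and 1826 in TFEB vehicle, without overlap. Its difference was 0.31 ± 0.10 log2 (SE) with a limma adjusted p of 0.0608, and of 0.0463 without vector vehicle library 1. Espl1 and Pttg1 were the 2 members whose TFEB vehicle libraries all lay below the vector libraries, as for 9.66% of tested genes, with differences of -0.32 and -0.73 log2 and limma adjusted p of 0.106 and 0.235. In 5 members, Bub1, Bub1b, Bub3, Spc24 and Prc1, they all lay above the vector libraries, as for 12% of tested genes.

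In 4-OHT, TFEB against vector cells passed as lower for 39 of 44 members and as higher for none, where 13.5% of tested genes were called lower and 13.6% higher. This comparison shares the TFEB 4-OHT libraries with the comparison within TFEB cells. The median difference was -0.61 log2. The 5 members that did not pass were Cdc25b, Nek2, Cdc20, Pttg1 and Mybl2. Genes that had not passed within TFEB cells but passed here were Ccnb1 (-0.33 log2), Cdc25c (-0.63), Plk1 (-0.43), Incenp (-0.54), Mad2l1 (-0.39), Spc25 (-0.67) and Espl1 (-0.54). Incenp, for example, stood at 3854, 3667 and 3603 normalized counts in vector 4-OHT and at 2627, 2342 and 2669.8 in TFEB 4-OHT, without overlap, with a limma adjusted p of 8.67e-05. For Incenp the difference between the lines in vehicle was -0.24 log2 and the change of vector cells with 4-OHT was 0.19, and neither passed.

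Other genes of the same processes were taken from 8 lists and are given for 4-OHT against vehicle in TFEB cells, where 13.9% of tested genes fell and 13.7% rose. Of 8 condensin subunits, which compact mitotic chromosomes, 7 fell and none rose, with a median of -0.56 log2. Ncapd2 fell by 0.74 log2 (from 4319 ± 334 to 2579 ± 142 normalized counts, SD, n = 3), Ncaph by 0.74, Ncapg by 0.72 and Ncapd3 by 0.60. Of 33 genes of the constitutive centromere network and outer kinetochore, 8 fell and 3 rose (median -0.21). Cenpk, an inner kinetochore subunit, fell by 1.51, from 376 ± 45.2 to 133 ± 32.8, Nsl1, of the MIS12 complex, by 0.91, Mad2l1bp, which helps to silence the checkpoint, by 0.75 and Cenpm by 0.73. Dsn1, Spdl1 and Zwint were the 3 that rose.

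Cohesin and the anaphase-promoting complex were mixed. Of 16 tested cohesin genes 5 fell and 3 rose (median -0.19). The shugoshins Sgol2 and Sgol1, which protect centromeric cohesion, fell by 0.85 and 0.53 log2, whereas Esco1, an acetyltransferase that stabilizes cohesin, rose by 0.56 and Wapal, which releases cohesin, rose by 0.43. Of 17 genes of the anaphase-promoting complex and its regulators 5 fell and 1 rose (median -0.01). Its inhibitor Fbxo5 fell by 0.63 and its coactivator Fzr1 by 0.45, while the subunit Anapc7 rose by 0.35.

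Of 44 further kinesin, microtubule and cytokinesis genes 18 fell and 3 rose (median -0.18). Depdc1a fell by 0.77, Spag5, the gene of astrin, by 0.74 and Aspm, a spindle pole protein, by 0.69, and Haus7, of the augmin complex, rose by 0.89. Of 26 further mitotic kinases, phosphatases and regulators 5 fell and 3 rose (median -0.11), near the shares over all tested genes. Cyclin A2 (Ccna2) fell by 0.60, from 4393 ± 160 to 2902 ± 205 (SD, n = 3), the kinase Pbk by 0.82 and Cdca2 by 0.57. Plk2, a stress-responsive relative of Plk1, went from 10.3, 17.1 and 0 normalized counts in TFEB vehicle to 533, 506 and 467 in TFEB 4-OHT, a change of 6.41 log2 with a limma adjusted p of 5.86e-09. That is the opposite direction to Plk4, which fell. The vehicle values of Plk2 rest on low counts, as 1 read was worth 0.857, 1.07 and 1.38 normalized counts in these libraries.

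Of 13 genes of the DREAM and MuvB complexes, which hold or drive transcription through the CHR, 4 fell and none rose (median -0.20). Tfdp2, the dimer partner of E2F proteins, fell by 0.73, E2f5 by 0.68, the pocket protein gene Rbl1 by 0.65 and Rbbp4 by 0.27. In the comparison list of 60 DNA replication and S phase genes 22 fell and 2 rose, with a median of -0.20 log2, against -0.48 in the 44 mitotic genes. The medians of the other lists above ran from -0.56 for condensin to -0.01 for the anaphase-promoting complex. Only the condensin median was clearly below that of the replication list. The centromere list (-0.207) and the DREAM and MuvB list (-0.2026) stood close to the replication list (-0.2029). The medians of cohesin (-0.19), the further kinesins (-0.18), the further kinases (-0.11) and the anaphase-promoting complex were nearer to no change. Gins2, of the replicative helicase, fell by 1.31 log2, Pole2, a subunit of DNA polymerase epsilon, by 1.09 and the thymidine kinase Tk1 by 0.97, whereas Tyms, the gene of thymidylate synthase, rose by 0.78. In vector cells 0 genes of the 8 lists passed in limma with 4-OHT, and at an unadjusted p under 0.05 the replication list had 11 of 60 and the other lists 0 to 5 each, against 822 of 13111 tested genes. After adjustment edgeR also gave 0 there.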

How the data were processed

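Cells of 1 mouse B cell lymphoma were measured by RNA-seq in 12 libraries, 3 in each of 4 groups. The deposited values are a signal that is never negative: the authors' read counts per gene divided by 1 size factor per library, called normalized counts here. The build mm10 and the tools DESeq2 1.6.3, HTSeq 0.6.1 and STAR 2.5.3 are named without roles, per the submitters' processing notes. Per the labels' protocols, total RNA went into a NuGEN Ovation mouse kit. The sources used here do not give the annotation or the strand setting of the counting.

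Whole reads were recovered, since 100% of the nonzero values of each library were multiples of the value of 1 read within a tolerance of 0.001. A gene at 0 had no counted reads, and its expected count could still be up to about 3 reads, or 2.21 to 4.15 normalized counts by library. Such floors describe counting error alone, because PCR copies are not separate molecules. Pairs of libraries within a group differed by more than sampling noise (chi-square over its degrees of freedom, 7.88 to 25.5, genes with at least 40 reads).

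The log2 scale with a pseudocount of 1 was used, which understates the change of low genes. Of 23479 genes, 13111 had at least 10 in at least 3 libraries. limma 3.58.1 (R 4.3.3) was fitted to all of them and all 12 libraries, with 1 mean per group, a variance trend and 8 residual degrees of freedom. P-values were adjusted by Benjamini-Hochberg over all tested genes with a threshold of 0.05. Intervals are 95% from the same fit. The pipeline was tested on simulated data with changes of at least 1 log2 and the same spread setting for all genes, which does not cover smaller changes. edgeR 4.0.16 and DESeq2 1.42.0 on the whole reads, other scalings, filters and pseudocounts, array weights, a replicate block and leaving out libraries were alternatives.

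In each role the members with the largest and the smallest change in TFEB cells were given by library, together with members called elsewhere, and of each other list up to 4 called genes with a mean of at least 100. Birc5, Spc24 and others outside this rule were named after their values were seen. The members and lists were chosen with earlier results of these data known. Same-numbered libraries of different groups did not deviate together as a rule, with 4 of 18 correlations over 0.1, so numbers were not used as pairs. The correlations were mixed, from -0.543 to 0.671, the highest being that of vector 4-OHT library 2 with TFEB 4-OHT library 2. Some libraries with different numbers deviated together as well. Among vector vehicle library 1, vector 4-OHT library 2, TFEB vehicle library 3 and TFEB 4-OHT library 2 the correlations were 0.288 to 0.671. The main fit had no term for this, and its cause was not tested. Motif searches used RefSeq promoter sequences (GRCm38.p6).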

Additional observations from a re-analysis of the deposited data

Results flagged for a closer look

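The difference between the 4-OHT effects of TFEB and vector cells passed the interaction test of limma for 25 members, all lower in TFEB cells. No explanation for these differences was tested. In order of size, the log2 difference was -1.25 for Ndc80, -1.12 for Spc24, -1.04 for Birc5, -0.98 for Top2a, -0.97 for Anln, -0.96 for Cenpf, -0.95 for Bub1, -0.94 for Nusap1, -0.92 for Mki67, -0.91 for Aurkb, -0.90 for Bub1b, -0.88 for Cdk1 and -0.82 for Foxm1. It was -0.76 for Ccnb2, -0.75 for Hmmr, -0.73 for Prc1, -0.68 for Kif11, -0.63 for Ect2, -0.61 for Ttk, -0.60 for Nuf2, -0.58 for Cenpe, -0.55 for Tpx2, -0.54 for Plk4, -0.44 for Kif20a and -0.42 for Bub3. Adjusted p-values from limma ran from 3.39e-07 for Top2a to 0.0402 for Ttk.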

How the results depend on the processing

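Over 25 alternatives the count of members called ranged from 30 to 38 in TFEB cells, from 21 to 31 for the interaction and from 35 to 40 for TFEB against vector cells in 4-OHT. Leaving out 1 library gave 31 to 35, 22 to 26 and 35 to 39. In vector cells the count was 0 to 1 over libraries left out, and in vehicle 0 to 1. In vector cells Cdc25b was called alone (count 1) with array weights, with DESeq2 (adjusted p 0.0165), and without vector 4-OHT library 2, alone, with TFEB vehicle library 3, or with that and TFEB 4-OHT library 2. The last of these was chosen after seeing the data. In vehicle Prc1 was called (count 1) with array weights and without vector vehicle library 1, and DESeq2 called 2, Prc1 and Espl1. With the replicate block the counts were 34, 0, 25, 0 and 39, the same as without. Correlations between same-numbered libraries were mixed, from -0.543 to 0.671.

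Of the 34 calls in TFEB cells 26 held under every alternative, and of the 25 interaction calls 20 did. Calls lost under some setting were Aurka, Bub3, Nuf2, Kif2c, Kif18b, Kif20a, Kif23 and Cdc20 in TFEB cells, and Plk4, Bub3, Ttk, Kif20a and Hmmr for the interaction. Mybl2 passed as higher in TFEB cells with DESeq2 (adjusted p 0.0272), with a minimum of 50, and without TFEB vehicle library 1 or TFEB 4-OHT library 1. Cdc25c, Spc25, Plk1 and Ccnb1 passed as lower under at least 1 setting. Uncalled values changed sign in 4 results, and the cause was not tested. In TFEB cells Incenp was 0.0366 without all 3 of those libraries, and Mad2l1 was -0.0671 without vector 4-OHT library 2 and TFEB vehicle library 3, -0.00904 without all 3, and -0.0671 to 0.107 without 1 library. The Cdc25b interaction was -0.142 with array weights and -0.0753 to 0.106 without 1 library. The Pttg1 interaction was -0.302 with array weights and -0.177 to 0.394 without 1 library.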
